A study of Mus musculus with 4 samples.

Results

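Gpc3, Eps8, Rassf4, Ipcef1 and Tnr are 5 protein-coding genes whose read counts differed between Hepa 1-6 cells carrying a guide for Usp5 and Hepa 1-6 cells carrying a control guide. They were chosen by measured values, namely a difference of at least 2-fold in the same direction between the 2 inputs and between the 2 YTHDF1 precipitates. They are 5 of the 53465 Ensembl gene IDs counted, and all 5 were among the 12927 IDs compared, those that averaged 1 normalised CPM (reads scaled to a common library size) or more. The IDs are ENSMUSG00000055653 (Gpc3), ENSMUSG00000015766 (Eps8), ENSMUSG00000042129 (Rassf4), ENSMUSG00000064065 (Ipcef1) and ENSMUSG00000015829 (Tnr). The count table carries no gene symbols, so these pairs of ID and symbol are those under which the genes were chosen. Of the IDs compared, 437 were at least 2-fold apart in the same direction in both pairs. How these 5 were picked from among them is not given in the sources used here.

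RNA bound by YTHDF1, a cytoplasmic reader of N6-methyladenosine in mRNA, was measured by RNA immunoprecipitation and sequencing (RIP-seq) in Hepa 1-6, a mouse hepatocellular carcinoma line. Usp5 encodes a deubiquitinase that takes apart free ubiquitin chains. The 4 groups were the YTHDF1 precipitate of sgUsp5 cells (genotype label Usp5 Knockdown), the YTHDF1 precipitate of sgcontrol cells (genotype label WT), the input of sgUsp5 cells and the input of sgcontrol cells. Each group is 1 library, no treatment is named for any, and the inputs are 10% of the same lysates, taken with no antibody. Whether the sgUsp5 cells are a clone or a pool is not given in the sources used here, the effect of the guide on Usp5 could not be read from a table without symbols, and no precipitate with a control antibody was used here. The libraries held between 29898171 and 33941019 counts.

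The 5 proteins work in different places. Gpc3 (glypican-3) is a heparan sulfate proteoglycan held at the cell surface by a lipid anchor. It binds Wnt and hedgehog ligands, is made in fetal liver, is nearly silent in adult liver and is a clinical marker of hepatocellular carcinoma in humans. Tnr (tenascin-R) is a secreted extracellular matrix glycoprotein best known from the nervous system, where it is part of perineuronal nets. Eps8, a substrate of the epidermal growth factor receptor, caps and bundles actin filaments and joins Abi1 and Sos1 in a complex that activates Rac. Rassf4 carries a Ras association domain and belongs to a family of adaptors that link Ras-type GTPases to Hippo kinases. Ipcef1 binds cytohesins, the exchange factors that activate Arf6.

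Eps8 was the only member with more reads in sgUsp5 cells, and the other 4 had fewer. With 1 library per group there is no replicate check of any difference between the guides, no p-value is given for it, and it chose the members. The values below describe it. A 95% counting interval (Clopper-Pearson on the split of reads) is given with each ratio. No molecular identifiers are described and the libraries were amplified, so it covers counting error only. The libraries scattered further than that. Over genes with log2 mean CPM between 0 and 6, the median squared deviation was 65.0 times the binomial one between the inputs and 18.7 times between the RIP libraries. A widened interval, which divides the counts by these factors, is given beside each counting interval. The factors come from these same libraries and include any effect of the guide.

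**Figure D1:**
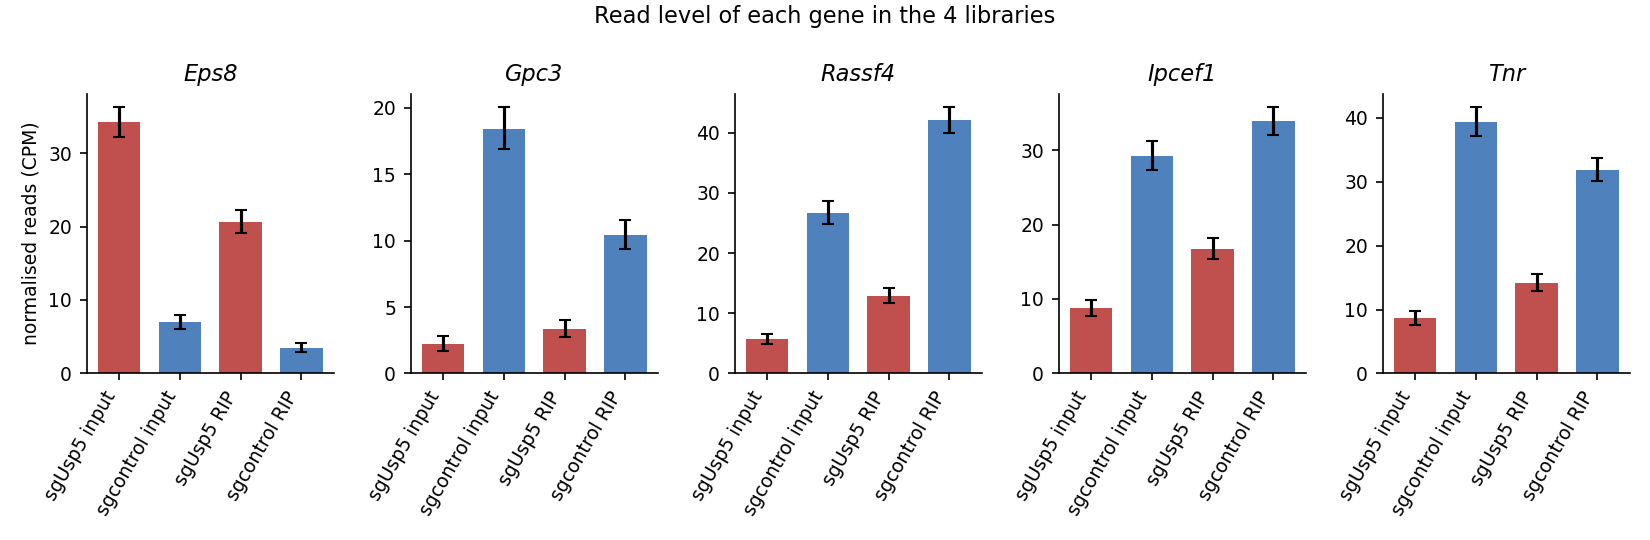
Normalised reads (CPM, vertical axes from 0, a scale of its own for each gene) of the 5 genes in the 4 libraries, 1 bar per library; error bars are exact 95% Poisson intervals and cover counting error only. Eps8 was higher in both sgUsp5 libraries (34.2 CPM in the input and 20.6 CPM in the RIP) than in the sgcontrol libraries, and the other 4 genes were lower.

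Eps8, the actin regulator, had 1051 reads in the sgUsp5 input, against 198 in the sgcontrol input. In the precipitates it had 653 reads in sgUsp5 cells and 126 in sgcontrol cells. Both sgUsp5 libraries lay above both sgcontrol libraries, with 34.2 and 20.6 CPM in the sgUsp5 input and RIP, against 6.94 and 3.53 CPM in the sgcontrol input and RIP. The input ratio of sgUsp5 over sgcontrol was 4.91-fold, a log2 ratio of 2.30 (counting interval 2.08 to 2.53, widened interval 0.70 to 4.23). The RIP ratio was 5.81-fold, a log2 ratio of 2.54 (counting interval 2.27 to 2.83, widened interval 1.43 to 3.81). Eps8 was thus the only member whose RIP ratio was further from no difference than its input ratio. Its gene lies on chromosome 6 (GRCm38, 137477245 to 137649397) and overlaps no other gene in the RefSeq table.

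Gpc3, the glypican, had 68 reads in the sgUsp5 input, against 526 in the sgcontrol input. Its precipitates held 105 reads in sgUsp5 cells and 372 in sgcontrol cells. The levels were 2.21 and 3.31 CPM in the sgUsp5 input and RIP and 18.4 and 10.4 CPM in the sgcontrol input and RIP, so that all sgUsp5 values lay below all sgcontrol values. The inputs differed 8.29-fold, the furthest of the 5 genes, with a log2 ratio of -3.05 (counting interval -3.45 to -2.69, widened interval -6.33 to -0.60). The RIP libraries differed 3.14-fold, with a log2 ratio of -1.65 (counting interval -1.98 to -1.34, widened interval -3.09 to -0.38). Gpc3 had the fewest reads of the 5 genes (1071 over the 4 libraries) and the widest intervals.

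Tnr, the tenascin, had 266 reads in the sgUsp5 input, against 1123 in the sgcontrol input, and 448 reads in the sgUsp5 RIP, against 1137 in the sgcontrol RIP. These correspond to 8.65 and 14.1 CPM in the sgUsp5 input and RIP, against 39.4 and 31.9 CPM in the sgcontrol input and RIP. Reads of this matrix gene, best known from neural tissue, were therefore counted in all 4 libraries of a liver tumour line. The input log2 ratio was -2.18 (counting interval -2.38 to -1.99, widened interval -3.86 to -0.75), or 4.55-fold lower in sgUsp5 cells. The RIP log2 ratio was -1.17 (counting interval -1.33 to -1.01, widened interval -1.87 to -0.51), or 2.25-fold lower. In bulk lysates, fewer cells that hold an RNA and less of it per cell cannot be told apart.

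Rassf4, the Ras association adaptor, had 176 reads in the sgUsp5 input, against 762 in the sgcontrol input, and 408 reads in the sgUsp5 RIP, against 1502 in the sgcontrol RIP. The sgUsp5 levels of 5.72 CPM (input) and 12.9 CPM (RIP) did not overlap the sgcontrol levels of 26.7 CPM (input) and 42.1 CPM (RIP). The input log2 ratio was -2.22 (counting interval -2.47 to -1.98, widened interval -4.30 to -0.49), a 4.66-fold lower level in sgUsp5 cells. The RIP log2 ratio was -1.71 (counting interval -1.87 to -1.55, widened interval -2.42 to -1.05), a 3.27-fold lower level. Among the 4 lower genes, the RIP ratio of Rassf4 was the furthest from no difference.

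Ipcef1, the cytohesin partner, showed the smallest differences of the 5. It had 269 reads in the sgUsp5 input, against 834 in the sgcontrol input, and 530 reads in the sgUsp5 RIP, against 1207 in the sgcontrol RIP. Its levels were 8.74 and 16.7 CPM in the sgUsp5 input and RIP, below the 29.2 and 33.8 CPM of the sgcontrol input and RIP. The input log2 ratio was -1.74 (counting interval -1.94 to -1.54, widened interval -3.44 to -0.24), or 3.34-fold lower in sgUsp5 cells. The RIP log2 ratio was -1.02 (counting interval -1.17 to -0.87, widened interval -1.67 to -0.39), just inside the 2-fold rule at 2.02-fold. With DESeq2 size factors in place of TMM factors it was -0.997 and no longer inside.

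**Figure D2:**
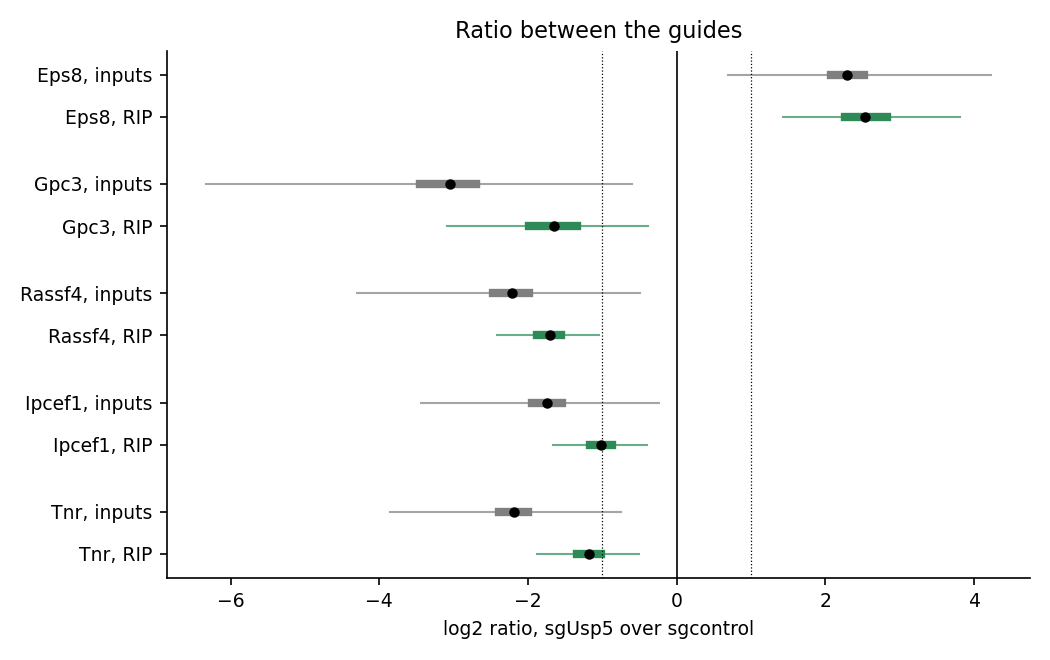
Log2 ratio of sgUsp5 over sgcontrol (horizontal axis) for each gene in the inputs (grey) and the RIP libraries (green); dots are the ratios, thick lines the 95% counting intervals, thin lines the widened intervals, and dotted lines mark 2-fold. All 10 ratios lie on the same side of 0 within a gene and no widened interval reaches 0; Eps8 alone lies to the right.

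A gene is called here where its ratio is at least 2-fold and its counting interval leaves out a ratio of 1. All 5 genes were called in both pairs. They were chosen by the 2-fold difference in both pairs, and the interval was no part of that choice. Over all genes compared, 12.4% were called higher and 12.2% lower in the sgUsp5 input than in the sgcontrol input. Between the RIP libraries, 4.53% were called higher and 4.64% lower in sgUsp5 cells. In both pairs at once, 1.56% were called higher (202 genes, Eps8 among them) and 1.67% lower (216 genes, the other 4 among them). With the widened intervals, both pairs called 7 genes higher (0.0542%) and 11 lower (0.0851%). The 5 members were 1 of the 7 and 4 of the 11. These calls use the same ratios that chose the members, so nothing is read from their place among them. Without any interval, 215 genes were at least 2-fold higher and 222 at least 2-fold lower in both pairs, while 339 were at least 2-fold apart in opposite directions.

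The shared genes were mostly of low level: their median was 1.93 CPM (mean of the 4 libraries, over the 437 genes past 2-fold in both pairs), against 20.3 CPM for all genes compared. The members lay between 8.60 CPM (Gpc3) and 23.5 CPM (Tnr). For scale, each is set beside the genes with a mean level within 0.5 of its own on the log2 scale, itself included. The ratios that chose the members are the ones counted here, so a high place among these genes follows from the choice and nothing is read from it. Of 1882 such genes for Eps8, 10.8% were called higher in the inputs, 0.850% in the RIP libraries and 4 genes in both. Reach is compared here by the smaller of a gene's 2 absolute log2 ratios, both in the member's direction. By it, none of the others was as far from no difference as Eps8. Of 1655 genes at the level of Gpc3, 16.8% were called lower in the inputs, 3.26% in the RIP libraries and 13 in both. By the smaller ratio, 3 of them, Gpc3 included, were at least as far as Gpc3. Of the 1900, 1902 and 1890 genes at the levels of Rassf4, Ipcef1 and Tnr, between 5.71% and 6.16% were called lower in the inputs and between 0.789% and 0.894% in the RIP libraries. Both pairs called 5 of them at the level of Rassf4, 7 at that of Ipcef1 and 7 at that of Tnr. By the smaller ratio, 2, 7 and 4 were at least as far as the named gene, itself included.

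**Figure D3:**
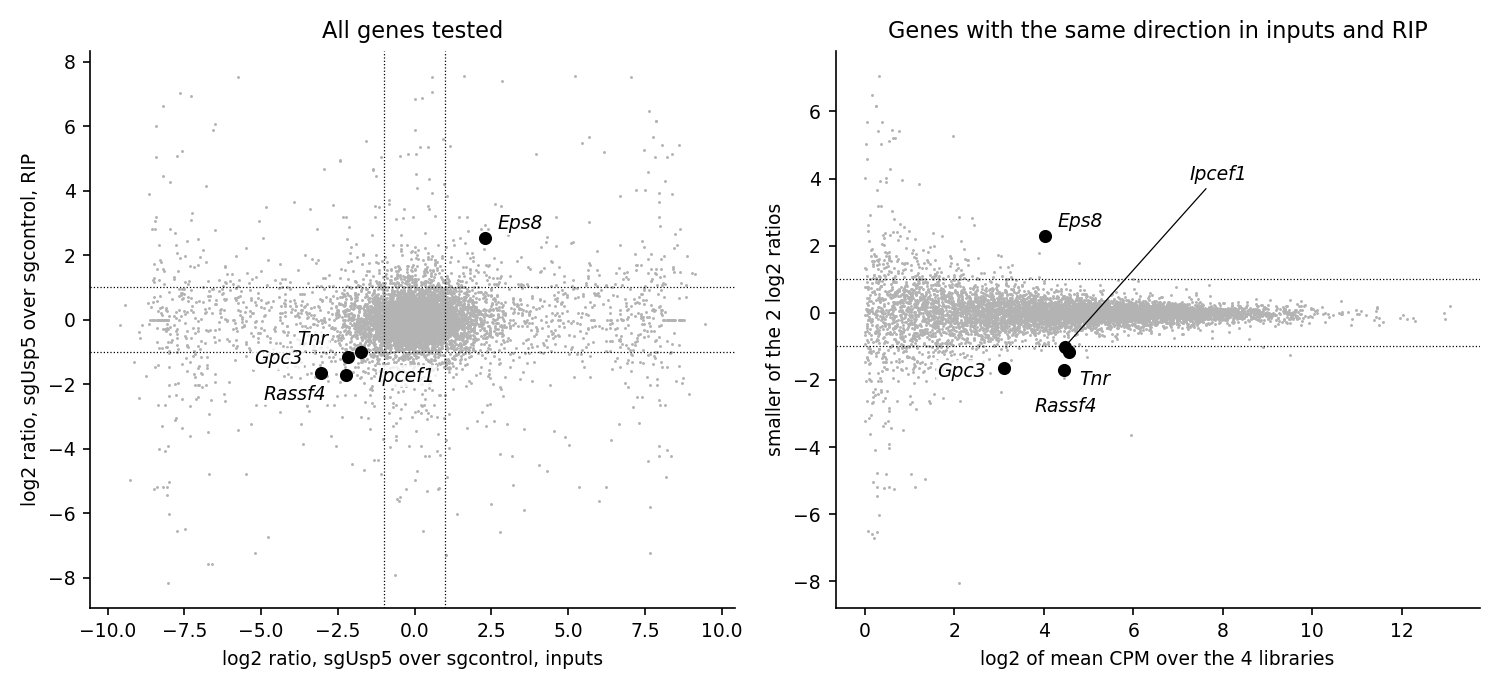
Left, log2 ratio of sgUsp5 over sgcontrol in the inputs (horizontal) and the RIP libraries (vertical) for the 12927 genes compared, 1 grey point per gene, with the 5 members in black and dotted lines at 2-fold. Right, for genes with the same direction in both pairs, the smaller of the 2 log2 ratios (vertical) against the log2 of the mean CPM (horizontal); most genes past 2-fold sit at low levels. The plotted ratios are those that chose the members, so their place past the dotted lines, where other genes also lie, follows from the choice.

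The threshold itself is not a gap in the data. Ipcef1, with 1.02 as the smaller of its 2 absolute log2 ratios, was the member nearest to it. Among all genes compared, the lower gene just inside had log2 ratios of -1.17 in the inputs and -1.01 in the RIP libraries. The lower gene just outside had -0.998 and -1.10, with 620 and 418 reads in the sgUsp5 input and RIP, against 1149 and 1010 reads in the sgcontrol input and RIP. Among higher genes, the one just inside had log2 ratios of 6.44 in the inputs and 1.00 in the RIP libraries, on 1 read in the sgcontrol input.

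The 4 lower genes share no chromosome. Per the RefSeq table of GRCm38.p6, which is the mm10 assembly, Gpc3 lies on chromosome X (52272426 to 52613974), Tnr on chromosome 1 (159523729 to 159931729), Rassf4 on chromosome 6 (116633008 to 116673836) and Ipcef1 on chromosome 10 (6885779 to 7054782). Eps8 is also on chromosome 6, 20.8 Mb from Rassf4. Each of the 5 genes spans more of the genome than the median of 17.1 kb over 21900 protein-coding genes. Rassf4 is the shortest at 40.8 kb, Ipcef1 spans 169 kb, Eps8 172 kb, Gpc3 342 kb and Tnr 408 kb, which is longer than 98.5% of protein-coding genes. Ipcef1 shares 152431 bases of its span with Oprm1, the mu opioid receptor gene. Rassf4 shares 2164 bases with Depp1, Gpc3 shares 38132 bases with the noncoding gene A630012P03Rik, and Tnr shares 10695 bases with the noncoding gene Gm31348. These are overlaps of whole spans, introns included, and overlap of exons was not examined. How the counting treated strand is not given in the sources used here. Whether any reads of these partners were counted for the members therefore cannot be told.

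In the promoter table, windows that carried the symbol of a member were taken first. Any of these on a chromosome that holds no member were then left out, while the shares over all windows below leave none out. The windows kept belong to 4 of the 5 members, all of them lower in sgUsp5 cells. Their windows are shown because these genes were lower together. Each is the RefSeq window of 300 bases in GRCm38.p6, 250 before to 50 after the annotated start, written 5′ to 3′ on the strand of the gene. For Ipcef1, which has 3 annotated windows, the one furthest upstream is printed. All 3 lie inside the span of the gene, away from its upstream end at 7054782. The printed window is therefore at an internal start, and no window at that end was examined. Capitals mark matches to any of 8 short motifs searched on both strands: the GC box with the letters GGGCGG, the pentamer CCAAT bound by NF-Y, the core promoter word TATAAA, the E-box word CACGTG, the AP-1 word TGANTCA, the TEAD word GGAATG, the nuclear receptor half-site AGGTCA and the ETS word CCGGAAG.
Gpc3, chrX:52613925-52614224, minus strand: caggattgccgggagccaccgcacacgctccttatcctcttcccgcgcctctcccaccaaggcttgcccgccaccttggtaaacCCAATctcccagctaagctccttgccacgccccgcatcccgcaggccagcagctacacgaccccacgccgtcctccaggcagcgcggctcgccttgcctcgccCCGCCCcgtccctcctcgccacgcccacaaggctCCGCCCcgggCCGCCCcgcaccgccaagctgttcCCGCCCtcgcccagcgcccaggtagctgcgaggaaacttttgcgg
Rassf4, chr6:116673787-116674086, minus strand: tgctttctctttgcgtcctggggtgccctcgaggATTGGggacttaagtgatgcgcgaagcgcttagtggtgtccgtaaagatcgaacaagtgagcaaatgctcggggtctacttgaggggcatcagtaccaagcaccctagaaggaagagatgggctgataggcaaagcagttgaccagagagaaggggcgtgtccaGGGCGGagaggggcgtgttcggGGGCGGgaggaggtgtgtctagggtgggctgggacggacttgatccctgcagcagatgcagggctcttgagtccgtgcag
Ipcef1, chr10:7023136-7023435, minus strand: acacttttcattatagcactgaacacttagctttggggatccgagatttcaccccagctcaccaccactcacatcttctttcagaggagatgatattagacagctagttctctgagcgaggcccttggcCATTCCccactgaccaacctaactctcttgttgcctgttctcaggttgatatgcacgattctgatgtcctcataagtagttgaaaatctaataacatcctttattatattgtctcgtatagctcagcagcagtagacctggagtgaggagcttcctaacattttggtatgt
Tnr, chr1:159523519-159523818, plus strand: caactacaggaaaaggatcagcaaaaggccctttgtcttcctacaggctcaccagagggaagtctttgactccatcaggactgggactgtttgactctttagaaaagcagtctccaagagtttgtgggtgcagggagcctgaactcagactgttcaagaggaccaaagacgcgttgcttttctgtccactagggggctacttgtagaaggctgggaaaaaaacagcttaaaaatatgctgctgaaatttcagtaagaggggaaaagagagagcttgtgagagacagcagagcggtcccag

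The windows had little in common, and that of Ipcef1 is at a start inside the gene. The Gpc3 window is 70.7% G or C with 30 CpG dinucleotides, a ratio of observed to expected CpG of 0.919 that is above that of 88.7% of all 32851 windows. It held GGGCGG 4 times, always on the opposite strand (capitals CCGCCC), and CCAAT 1 time. The Rassf4 window is 58.7% G or C with 15 CpG dinucleotides and held GGGCGG 2 times and CCAAT 1 time, printed as ATTGG. The Tnr window, at 48% G or C and 3 CpG dinucleotides, matched none of the 8 motifs, and the printed Ipcef1 window, at 43.7% G or C and 4 CpG dinucleotides, held GGAATG alone, printed as CATTCC. No motif was found in all 4 genes. Of all windows, 35.7% held GGGCGG, 37.4% CCAAT and 14.7% GGAATG. The motifs that matched no member were in 13.6% (TATAAA), 7.15% (CACGTG), 7.81% (TGANTCA), 16.3% (AGGTCA) and 8.86% (CCGGAAG) of windows. Such matches are letters in a window, not measured binding.

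Whether the YTHDF1 antibody recovered these RNAs is read from RIP set against input within each guide. The members were not chosen by that contrast, but it uses the same counts that chose them. Where recovery differs between the guides, the difference comes from the ratios that chose the members, and nothing is read from it. Rassf4 and Ipcef1 had higher levels in the RIP than in the input with either guide, and Eps8 had lower levels. Gpc3 and Tnr had higher levels in the RIP in sgUsp5 cells and lower levels in the RIP in sgcontrol cells. No recovery passed the test over both guides.

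For Rassf4, RIP over input was 2.25-fold in sgUsp5 cells (log2 ratio 1.17, counting interval 0.91 to 1.43) and 1.58-fold in sgcontrol cells (log2 ratio 0.66, counting interval 0.53 to 0.78). For Ipcef1 the log2 ratios were 0.93 (0.72 to 1.15) in sgUsp5 cells and 0.21 (0.08 to 0.34) in sgcontrol cells. Both adaptor genes thus lay on the enriched side with either guide, further in sgUsp5 cells. Eps8 had log2 ratios of -0.73 (-0.87 to -0.59) in sgUsp5 cells and -0.97 (-1.31 to -0.64) in sgcontrol cells, the only member below its input in both. The glypican and the tenascin differed in side. Gpc3 had a log2 ratio of 0.58 (0.13 to 1.05) in sgUsp5 cells and -0.82 (-1.02 to -0.63) in sgcontrol cells, and Tnr had 0.71 (0.49 to 0.93) in sgUsp5 cells and -0.30 (-0.42 to -0.18) in sgcontrol cells. The widened intervals, here from the scatter of each RIP library around its own input, included 0 for all 10 ratios. That scatter includes any recovery or loss of other RNAs with the antibody. These intervals therefore cannot tell recovery from noise, and nothing is read from their reaching 0.

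**Figure D4:**
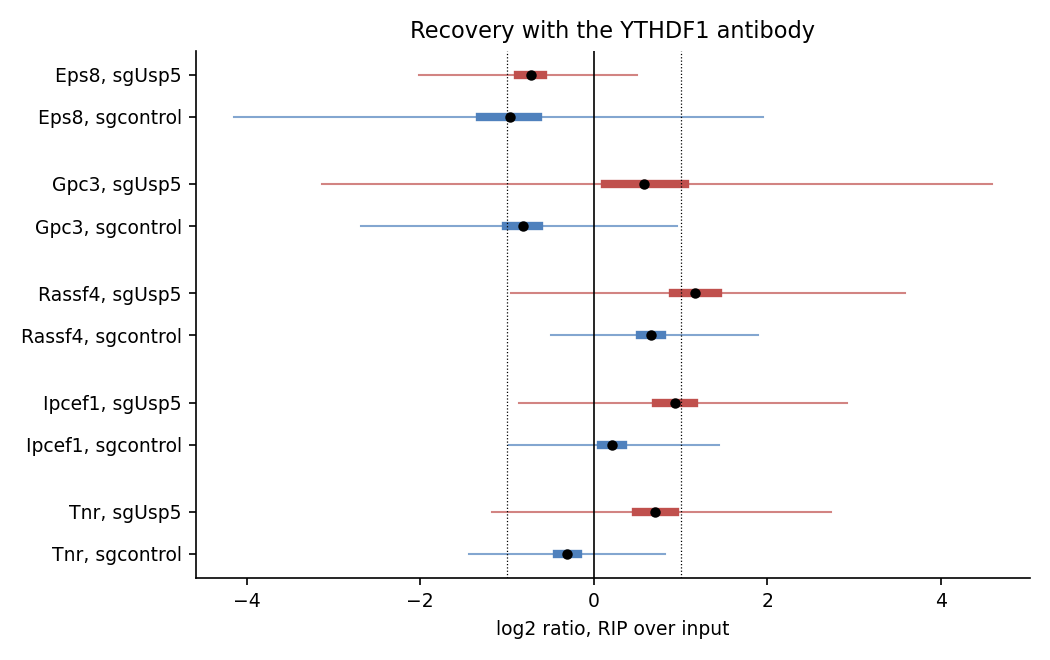
Log2 ratio of RIP over input (horizontal axis) for each gene in sgUsp5 cells (red) and sgcontrol cells (blue); dots are the ratios, thick lines the 95% counting intervals, thin lines the widened intervals, and dotted lines mark 2-fold. Rassf4 in sgUsp5 cells is the only dot past 2-fold, at 1.17, and every thin line crosses 0.

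By the 2-fold rule, 1 of 5 members (Rassf4) was called enriched in the RIP of sgUsp5 cells, where 15.8% of all genes compared were called enriched and 13.8% depleted. In sgcontrol cells 0 of 5 were called, where 18.2% of all genes were enriched and 15.2% depleted. When only library totals were used for scaling, the median log2 RIP over input of all genes moved to 0.15 in sgUsp5 cells and 0.21 in sgcontrol cells, against 0.02 and 0.03 with TMM factors. The enriched share of the calls under library totals was 65.9% in sgcontrol cells, against 54.5% with TMM factors. That scaling shifts every gene alike, and Ipcef1 was then past 2-fold in sgUsp5 cells, at 1.06.

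RIP was tested against input over both guides with edgeR's quasi-likelihood test, with the guide as a block, on 2 RIP and 2 input libraries and 1 residual degree of freedom. Any effect of the guide on recovery counts as error in this fit. The residual of this fit comes from the difference between the input and RIP ratios that chose the members. How the choice acts on the residual was not tested. Rassf4 had a fitted log2 enrichment of 0.91 (edgeR Benjamini-Hochberg adjusted p = 0.072, higher in the RIP with 2 of 2 guides). Eps8 had -0.85 (edgeR adjusted p = 0.126, lower with 2 of 2 guides), and Ipcef1 had 0.57 (edgeR adjusted p = 0.267, higher with 2 of 2 guides). Tnr, at 0.19 (edgeR adjusted p = 0.750), and Gpc3, at -0.14 (edgeR adjusted p = 0.902), were on opposite sides with the 2 guides. At an adjusted p under 0.05, 0 of 5 members passed, where 10.1% of all genes were enriched and 11.3% depleted. The enriched share of these calls was 47.4%, and 63.5% with library totals. At an unadjusted p under 0.05 there were 2 members, Rassf4 and Eps8, and DESeq2's Wald test passed 0 members after adjustment and 1 before it (Rassf4). Rassf4 passed at an adjusted p of 0.0467 with library totals and 0.0468 over genes averaging 5 CPM or more, and had an adjusted p of 0.555 with no block for the guide.

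The ratio of the 2 recoveries, sgUsp5 over sgcontrol, uses the values that chose the members and is a description. It was above 1 for all 5 genes. The log2 values were 1.40 for Gpc3 (interval from counting error 0.92 to 1.88), 1.01 for Tnr (0.76 to 1.26), 0.72 for Ipcef1 (0.48 to 0.97), 0.51 for Rassf4 (0.23 to 0.80) and 0.24 for Eps8 (-0.11 to 0.59). Gpc3 and Tnr were past 2-fold (2 of 5, where 13.4% of all genes compared were called higher), and Tnr fell short of 2-fold with library totals, at 0.96. For the 4 lower genes a value above 0 says that the input ratio between guides was further from no difference than the RIP ratio. That was so for 343 of the 437 genes past 2-fold in both pairs (78.5%). Over all genes compared the absolute log2 ratios between guides were also larger in the inputs (median 0.44) than in the RIP libraries (median 0.24).

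Patterns over the 4 libraries were compared by the root-mean-square difference of log2 CPM after each gene was centred on its own mean. These are the values that chose the members, so likeness among the 4 lower genes and distance from Eps8 follow from the choice. Tnr and Ipcef1 were the closest pair of members at 0.25, with 20 genes nearer to Tnr than Ipcef1 was. Rassf4 and Ipcef1 followed at 0.34, with 9 genes nearer to Rassf4, and Tnr and Gpc3 at 0.39, with 95 genes nearer to Tnr. Gpc3 and Ipcef1 were the least alike of the lower genes at 0.62, and Eps8 was 2.03 or more from each of them. The gene nearest to Eps8 was ENSMUSG00000089703 at 0.18, with 289 and 171 reads in the sgUsp5 input and RIP, against 60 and 27 in the sgcontrol input and RIP. The nearest to Tnr was ENSMUSG00000108435 at 0.08, with 22 and 39 reads in the sgUsp5 input and RIP, against 97 and 87 in the sgcontrol input and RIP. The nearest to Ipcef1 was ENSMUSG00000044927 at 0.07, with 44 and 89 reads in the sgUsp5 input and RIP, against 149 and 187 in the sgcontrol input and RIP. All 15 genes in the first 3 places for the 5 members had mean levels between 1.34 and 4.41 CPM, below the level of the member they resembled. These likenesses rest on 4 libraries and few reads.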

How the data were processed

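RNA was counted in 4 libraries, 1 per group. The authors deposited raw read counts per Ensembl gene ID. HISAT2 2.1.0, featureCounts 1.6.3 and the mm10 build are named in the submitters' processing notes. The annotation release is not given in the sources used here. Of 53465 IDs, 31435 had 0 reads throughout.

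Counts were scaled with TMM factors (edgeR 4.0.16, R 4.3.3) between 0.926 and 1.06. For log2 ratios, 0.5 counts were added at the mean library size, scaled per library. RIP against input over both guides was tested with edgeR's quasi-likelihood test across all 12927 genes compared, with Benjamini-Hochberg adjustment, and with DESeq2 1.42.0 as an alternative. The code was tested on simulated data. The simulated guide differences carried counting error only, so that test does not cover scatter as wide as that between these libraries. Widened intervals used counts divided by the scatter factor, with 0.5 added.

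The members and lists were chosen with earlier results of these data known. The single genes described are the members, the 3 nearest patterns per member (3 IDs printed), the genes nearest the 2-fold threshold (values only) and, by position only and chosen after the data were seen, genes that overlap a member. The reference table paired 0 IDs with symbols, so the lists of relatives and partners, cell type markers, Usp5 and Ythdf1 were not analysed here. Alternatives were other scalings, 2 counts added, other filters, the widened interval, DESeq2 and no replicate block.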

Additional observations from a re-analysis of the deposited data

Results flagged for a closer look

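RIP over input lay on opposite sides with the 2 guides for 2 members. The difference is the ratio of recoveries, so it uses the values that chose the members. It was not tested, since each guide gave 1 precipitate and 1 input. For Gpc3 the log2 ratio was 0.58 in sgUsp5 cells and -0.82 in sgcontrol cells, a difference of 1.40, on 105 and 68 reads in the sgUsp5 RIP and input and 372 and 526 reads in the sgcontrol RIP and input. For Tnr it was 0.71 in sgUsp5 cells and -0.30 in sgcontrol cells, a difference of 1.01, on 448 and 266 reads in the sgUsp5 RIP and input and 1137 and 1123 reads in the sgcontrol RIP and input. The widened intervals of both differences included 0 (-1.39 to 4.20 for Gpc3 and -0.62 to 2.64 for Tnr). Between the guides the scatter was 65.0 times the binomial variance in the inputs and 18.7 times in the precipitates, and its part in the difference was not tested.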

How the results depend on the processing

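The guide ratios of all 5 members kept their direction with DESeq2 size factors, library totals and 2 counts added, and all stayed past 2-fold except Ipcef1 in the RIP libraries with DESeq2 size factors. Filters and interval widths cannot move these ratios, so they say nothing of their stability. With DESeq2 size factors, 1 member (Eps8) instead of 0 was past 2-fold in sgcontrol cells. With library totals, 2 members instead of 1 were enriched in sgUsp5 cells, 1 instead of 2 was past 2-fold in the ratio of recoveries, 1 instead of 0 passed edgeR's test, and Gpc3's fitted enrichment turned to 0.020. A mean of at least 5 CPM also passed 1 member. Widened intervals left 0 members in sgUsp5 cells and 0 in the ratio of recoveries. Without the replicate block Tnr turned to -0.060, and the count of genes past the test was 2225, against 2769. With 1 guide left out in turn (no test), Gpc3 ranged from -0.82 to 0.58 and Tnr from -0.30 to 0.71. Genes called in either direction (at least 2-fold, with an interval that leaves out 1), in the order inputs, RIP libraries, sgUsp5 recovery, sgcontrol recovery and ratio of recoveries, numbered 3180, 1185, 3829, 4323 and 3510. With 10 reads in all as the filter the first 4 were 5617, 4179, 6990 and 7478. With a mean of at least 5 CPM the 5 counts were 1288, 227, 2090, 2593 and 1527, and with widened intervals 322, 255, 1001, 1266 and 1006. Filters change which genes enter by construction, and for the scalings the cause was not tested. Single genes are limited by depth, 68 reads for Gpc3 in the sgUsp5 input being the lowest count.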
